A study of Homo sapiens with 12 samples.

Results

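The comparison of erastin with its solvent in libraries labelled as the human prostate cancer line PC3 is described here across all genes measured. Its members are 6 of the 12 RNA-seq samples of the series: replicates 1 to 3 of PC3 under DMSO and replicates 1 to 3 of PC3 under erastin at 5 µmol/L. The remaining 6 samples are LNCaP, another prostate cancer line, and do not enter. Per the labels all 6 libraries come from wild-type PC3 cells of prostate origin, so by their labels the groups differ in the agent alone, and DMSO is the only control. Neither the exposure time nor whether replicates were separate cultures is stated in the labels, so the p-values reflect only how these libraries vary within a group, possibly for technical reasons. PC3 is a line grown from a bone metastasis and is androgen-independent.

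Erastin blocks system xc-, the antiporter of SLC7A11 and SLC3A2 that brings cystine into the cell in exchange for glutamate. Cystine supplies cysteine for glutathione, which the enzyme GPX4 uses to reduce lipid peroxides, and cells that lose this defence can die by ferroptosis, which depends on iron. Cysteine shortage is also sensed by the kinases that phosphorylate eIF2alpha and thereby favour the translation of ATF4, whose targets include ATF3, amino acid transporters and the synthesis genes of several amino acids.

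Levels are FPKM, fragments per kilobase of gene, scaled to the fragments of the library, as the authors deposited them. Differences are means of log2(FPKM + 1) under erastin minus those under DMSO, with standard errors from limma and n = 3 per group, and they understate the change of genes with low values. A gene was tested if it reached 1 FPKM in at least 3 of the 6 libraries, which 15371 of 61221 genes did, and was called if its Benjamini-Hochberg adjusted p over all tested genes was below 0.05. Reads recovered from the FPKM steps numbered 13709558 to 16350657 per library. The depth implied by the steps was 0.907 to 0.937 of these reads under DMSO and 0.985 to 1.02 under erastin. The scaling was thus not exactly to the recovered reads. Results under other scalings are given at the end, and the reason for the difference was not tested. Positions are on hg38, the build in the submitters' processing notes. Values of a gene are given in the order of replicates 1 to 3, first for DMSO and then for erastin.

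The label was checked first. Transcripts that PC3 cells are known for were present under DMSO: CAV1, the main protein of caveolae, was at 278, 221 and 206 FPKM, VIM, the intermediate filament vimentin, at 48.4, 45.1 and 45.2 FPKM, and CD44, a hyaluronan receptor, at 26.1, 21.4 and 21.05 FPKM. Of 12 markers of LNCaP and androgen-dependent prostate cells 4 were tested, with 3 called lower under erastin and none higher, and the list summed to 96.4 to 162 FPKM per DMSO library and 46.6 to 52.7 FPKM per erastin library. KLK3, which encodes prostate-specific antigen, did not exceed 0.0536 FPKM, but most of the sum came from HOXB13, a homeobox factor of the prostate lineage, at 81.4, 137 and 147 FPKM under DMSO and 45.5, 40.7 and 38.98 FPKM under erastin. Against the label, CTNNA1, which encodes alpha-catenin and is known to be homozygously deleted in PC3, was at 56.7, 50.6 and 51.2 FPKM under DMSO and 5.92, 6.61 and 6.18 FPKM under erastin. The samples are therefore called libraries labelled PC3. Of 12 PC3 marker genes 2 stayed below 1 FPKM in every library, under DMSO as well. The other 10 were tested and all 10 were called lower under erastin. The summed FPKM of the 12 was 1092 to 1157 per DMSO library and 194 to 200.4 per erastin library.

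Markers of leukocytes and fibroblasts were low, and some endothelial markers were not. The 10 leukocyte markers summed to 0.531 to 1.67 FPKM per DMSO library and 3.91 to 5.15 FPKM per erastin library; 2 were tested, CD14 and NKG7, both called higher and both in the test only through their erastin values, while CD3D and CD2 were listed at 0 in every library. The 10 fibroblast markers summed to 3.43 to 5.66 FPKM under DMSO and 5.901 to 6.13 FPKM under erastin, with the 1 tested gene not called, or called lower without DMSO 1. The 10 endothelial markers summed to 41.3 to 44.5 FPKM under DMSO and 10.7 to 12.01 FPKM under erastin; 4 were tested and 3 were called lower, led by the VEGF receptor gene KDR at 31.2, 29.5 and 26.1 FPKM under DMSO and 4.03, 4.01 and 4.47 FPKM under erastin, while VWF did not exceed 0.0717 FPKM. The part of other cells in the results below was not tested.

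One DMSO library stood apart. DMSO 1 differed from DMSO 2 and DMSO 3 by a root mean square of 0.549 and 0.643 on the log2 scale over tested genes, against 0.275 between DMSO 2 and DMSO 3 and 0.259 to 0.284 between erastin libraries. Libraries of different groups differed by 1.15 to 1.25, so the groups lay farther apart than DMSO 1 lay from its own group. No 2 libraries agreed within sampling noise, with a chi-square of recovered reads of at least 3.39 per degree of freedom. Erastin libraries also had more genes above 0 (30239 to 31311, against 25679 to 26144 under DMSO) and more mitochondrial ribosomal RNA (1.95% to 2.18% of reads, against 0.628% to 0.944%). The part of these library differences in the results was not tested.

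**Figure D1:**
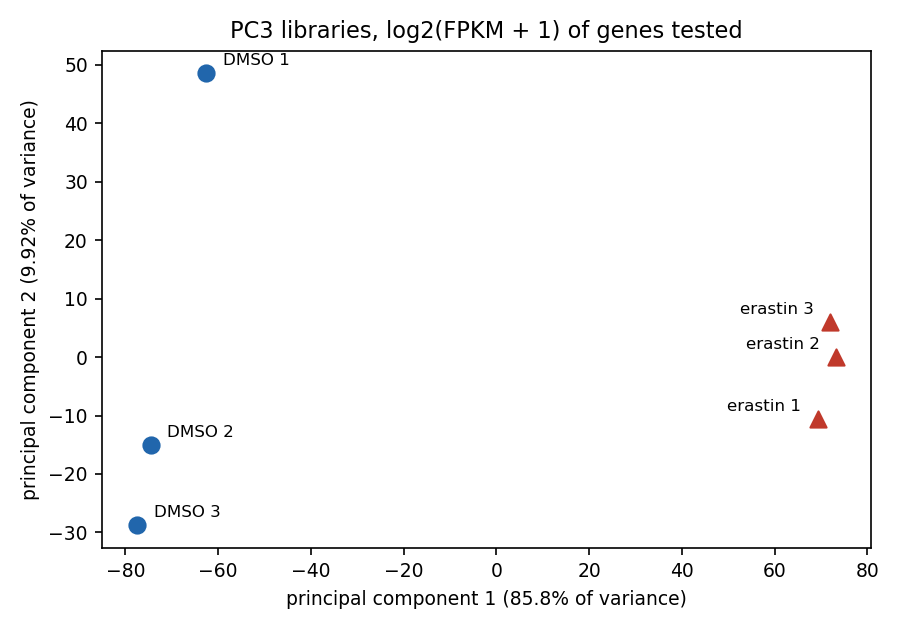
Position of each library on the leading principal components of log2(FPKM + 1) over the 15371 tested genes; circles are DMSO libraries and triangles are erastin libraries. Component 1, with 85.8% of the variance, separates the groups, and component 2, with 9.92%, separates DMSO 1 from DMSO 2 and DMSO 3.

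Of the 15371 tested genes, 66.4% were called: 5232 higher under erastin (34.0%) and 4982 lower (32.4%). A difference of 1 or more on the log2 scale was called in 2945 genes that rose (19.2%) and 2648 that fell (17.2%), one of 2 or more in 622 and 533, and one of 4 or more in 25 and 43. The 3 erastin libraries did not overlap the 3 DMSO libraries in 71.9% of tested genes, 36.7% above and 35.2% below. Without DMSO 1, calls numbered 12354, with 6185 higher and 6169 lower. Counts for gene lists below are read against these shares of 34.0% and 32.4%. Of the tested genes 1607 reached 1 FPKM in erastin libraries alone and 941 in DMSO libraries alone, and such genes entered the test through the group in which they are high. In bulk samples fewer cells that make a transcript and less of it per cell cannot be told apart.

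**Figure D2:**
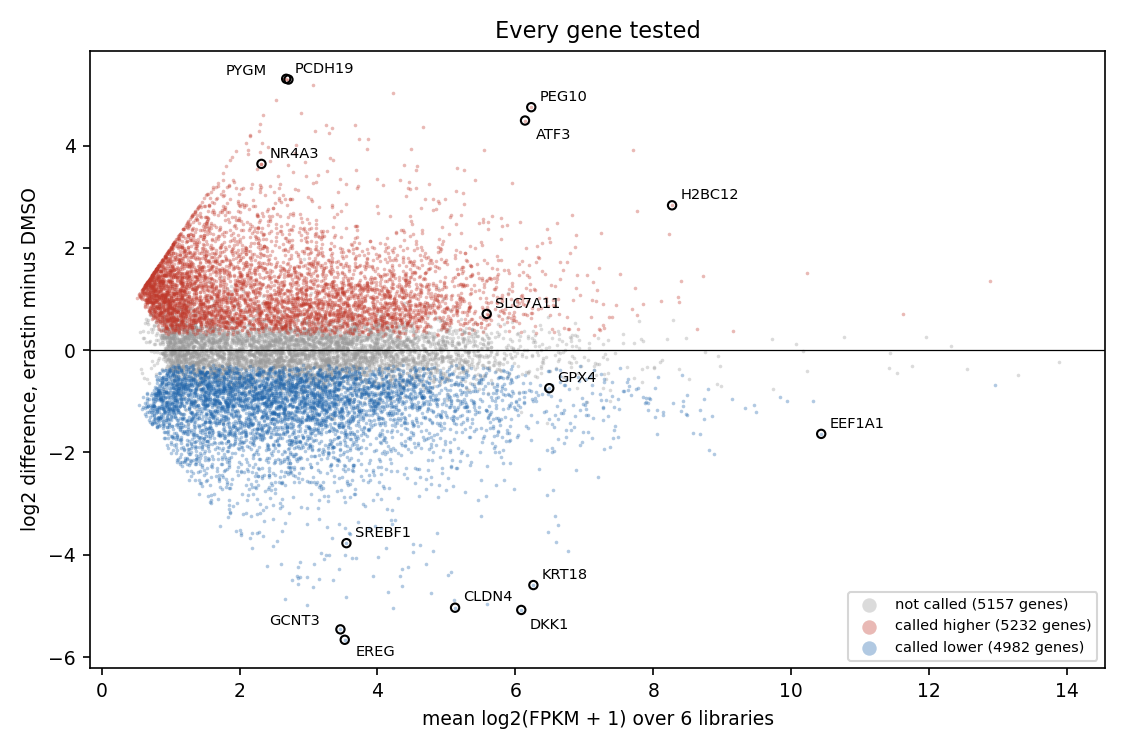
Log2 difference, erastin minus DMSO, of each tested gene against its mean log2(FPKM + 1) over the 6 libraries; red and blue points are the 5232 genes called higher and the 4982 called lower, grey points the rest. ATF3 and PEG10 lie high among well expressed genes, while CLDN4, DKK1 and KRT18 lie low.

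ATF3, a stress-induced transcription factor of the ATF and CREB family at chr1:212565334-212620777, was at 13.2, 15.1 and 13.5 FPKM in DMSO 1 to 3 and at 348, 323 and 329 FPKM in erastin 1 to 3. All erastin libraries lay far above all DMSO libraries, and DMSO 1 lay among its group. The difference was 4.49 ± 0.11 on the log2 scale (SE, n = 3 per group; limma with Benjamini-Hochberg adjustment, adjusted p = 4.5e-06), and 4.45 without DMSO 1. CLDN4, a tight junction claudin at chr7:73799542-73832693, was at 127, 239 and 259 FPKM under DMSO and at 6.02, 5.49 and 3.98 FPKM under erastin. Here DMSO 1 was the lowest of its group, and still far above every erastin library. CLDN4 fell by 5.03 on the log2 scale (SE 0.29; limma with Benjamini-Hochberg adjustment, adjusted p = 2.33e-05), and the difference was -5.36 without DMSO 1.

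The 15 protein-coding genes with the largest rises spanned differences of 4.01 to 5.30. PCDH19, a nonclustered protocadherin of neuronal adhesion at chrX:100291644-100410273, was listed at 0.0220, 0.0142 and 0.0146 FPKM under DMSO and 38.5, 40.5 and 38.6 FPKM under erastin. PYGM, muscle glycogen phosphorylase at chr11:64746389-64759974, was at 0.0615, 0 and 0.0763 FPKM and 39.6, 42.5 and 37.7 FPKM. SERPINI1, which encodes neuroserpin, an inhibitor of tissue plasminogen activator, was at 2.75, 2.405 and 1.76 FPKM and 105, 103 and 110.0 FPKM at chr3:167735243-167825568. In these 3 genes DMSO levels were low in all 3 libraries and erastin libraries stayed close to each other.

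PEG10, an imprinted gene derived from a retrotransposon at chr7:94656325-94669695, already had 16.1, 13.2 and 11.5 FPKM under DMSO and reached 388, 381 and 397 FPKM under erastin. MYLIP, an E3 ubiquitin ligase, was at 2.03, 1.78 and 1.57 FPKM and 58.1, 59.03 and 55.6 FPKM. ARRDC3, an alpha-arrestin that directs the turnover of cell surface receptors, was at 6.36, 4.29 and 3.41 FPKM and 113, 109.8 and 117 FPKM. The groups did not overlap in any of these genes. The neighbouring amine oxidase genes AOC2 and AOC3 on chromosome 17 rose by 4.28 and 4.05, DHRS2, a short-chain dehydrogenase, by 4.13, and ACKR3, the scavenging receptor of the chemokine CXCL12, by 4.01. The other 5 of the 15 were RNF225, H1-4, PCDH10, KLHL28 and ATF3 itself.

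The 15 largest falls spanned differences of -4.43 to -5.66. EREG, the EGF receptor ligand epiregulin at chr4:74365145-74388749, was at 124, 71.7 and 59.3 FPKM under DMSO and 0.532, 0.696 and 0.631 FPKM under erastin. GCNT3, a mucin-type O-glycan transferase at chr15:59594875-59640239, was at 80.7, 67.8 and 68.5 FPKM and 0.660, 0.657 and 0.671 FPKM. DKK1, a secreted inhibitor of Wnt signalling at chr10:52314281-52318042, was at 431, 370.0 and 383 FPKM and 9.49, 9.49 and 13.5 FPKM. Each of these was abundant under DMSO and fell to a small share of that level in all erastin libraries. F3, which encodes tissue factor, the cell surface trigger of blood coagulation, was at 40.8, 30.9 and 28.3 FPKM and 0.125, 0.193 and 0.194 FPKM at chr1:94529173-94541759. GPX2, a glutathione peroxidase typical of epithelia, was at 89.01, 99.7 and 113 FPKM and 2.99, 2.51 and 4.102 FPKM. CEACAM5, carcinoembryonic antigen, was at 42.3, 42.8 and 37.5 FPKM and 0.763, 1.09 and 0.826 FPKM. Most of the other genes in this set serve epithelial structure or its control, namely CLDN4, CLDN7, KRT18, DSG3, S100A14 and EHF, and CALB1, PRR15L and TRIM31 complete the 15.

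**Figure D3:**
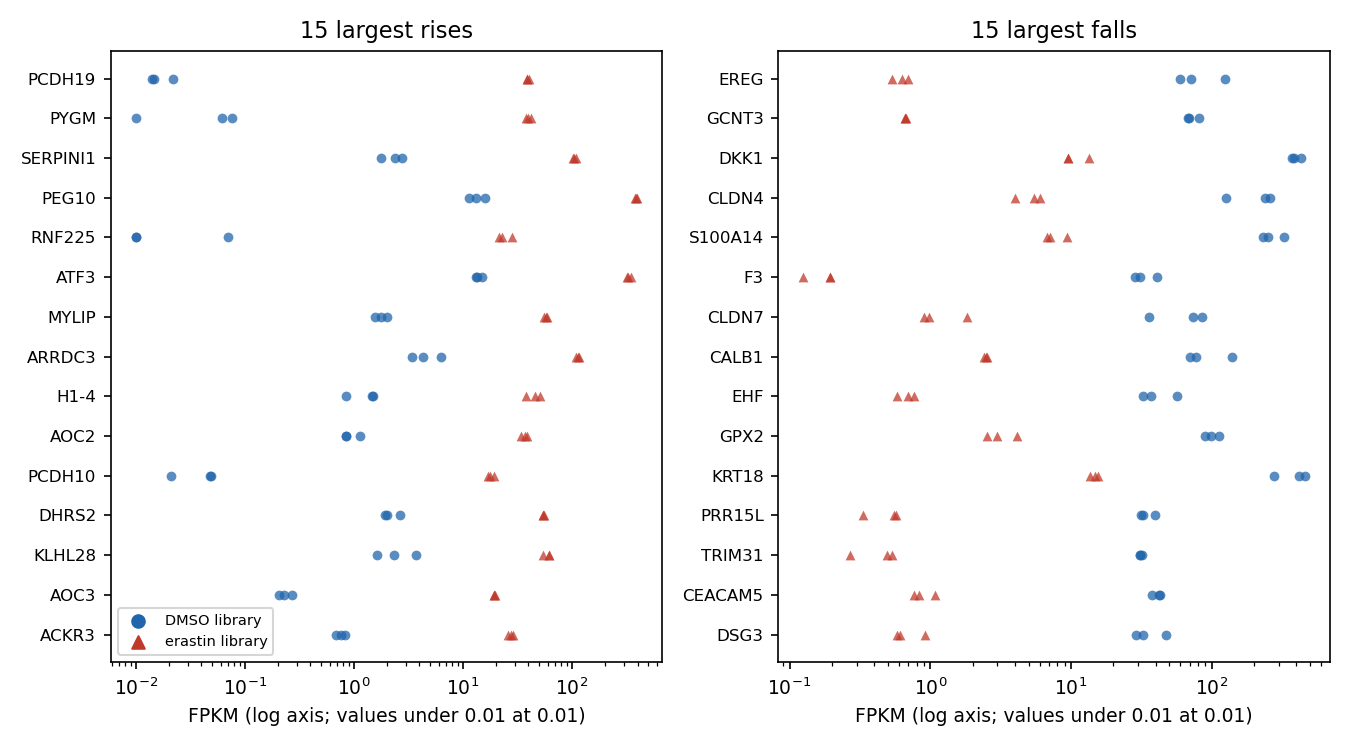
FPKM in each library, on a log axis, of the 15 protein-coding genes with the largest rises (left) and the 15 with the largest falls (right); circles are DMSO libraries and triangles erastin libraries, and values under 0.01 are drawn at 0.01. Groups do not overlap in any of the 30 genes, as the rule that chose them requires, and DMSO 1 is the lowest DMSO library for CLDN4, CLDN7 and KRT18.

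Epithelial junction and keratin genes fell in large part. Of 18 tested tight junction genes 11 were called lower and 4 higher (61.1% and 22.2%, against 32.4% and 34.0% of all tested genes), with a median difference of -0.73 beside 0.00 over all genes. CLDN7 was at 35.7, 73.7 and 85.7 FPKM under DMSO and 1.83, 0.980 and 0.897 FPKM under erastin, and CLDN3 at 36.8, 107 and 116 FPKM and 18.5, 13.97 and 12.4 FPKM. The other direction was taken by CLDN15, at 4.06, 6.72 and 8.03 FPKM and 31.4, 31.3 and 27.997 FPKM, and by CLDN12, at 19.02, 10.9 and 9.39 FPKM and 30.01, 34.1 and 33.4 FPKM. Claudins thus moved both ways, and DMSO 1 was on the erastin side of DMSO 2 and DMSO 3 for CLDN3, CLDN7 and CLDN12, though not for CLDN15.

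Of 23 tested adherens junction and desmosome genes 18 were called lower and 2 higher, with a median of -1.23. Among the 23, 3 reached 1 FPKM in DMSO libraries alone. CDH1, which encodes E-cadherin, was at 27.2, 25.8 and 23.05 FPKM under DMSO and 3.81, 3.96 and 4.59 FPKM under erastin. DSP, the desmosomal linker desmoplakin, was at 59.5, 58.3 and 52.5 FPKM and 4.47, 4.93 and 4.92 FPKM. EPCAM, an epithelial adhesion molecule, was at 122, 89.5 and 90.8 FPKM and 5.99, 8.56 and 7.95 FPKM. CTNNB1, which encodes beta-catenin, rose by 1.47 ± 0.10 from 24.8, 24.4 and 22.8 FPKM to 68.2, 67.7 and 68.5 FPKM, and NECTIN1 by 1.51 ± 0.17. Of 13 tested keratins 12 were called lower and none higher, with a median of -1.79. However, 5 of the 13 reached 1 FPKM in DMSO libraries alone (38.5%, against 6.12% of all tested genes), so the filter fixes their direction. The keratin list summed to 1029 to 1875 FPKM per DMSO library and 142 to 170.4 FPKM per erastin library. KRT8, the partner of KRT18 in simple epithelia, was at 337, 443 and 503 FPKM and 29.2, 25.8 and 25.8 FPKM.

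Transcription factors and splicing factors that maintain epithelia showed 14 of 19 tested genes lower and 2 higher. Among the 19, 5 reached 1 FPKM in DMSO libraries alone (26.3%), so the filter fixes their direction. EHF, an epithelial ETS factor, was at 56.7, 36.9 and 32.3 FPKM under DMSO and 0.578, 0.700 and 0.765 FPKM under erastin. ELF3, of the same subfamily, was at 10.1, 13.8 and 14.8 FPKM and 0.443, 0.476 and 0.432 FPKM. GRHL3, a grainyhead factor, fell by 2.59 on the log2 scale, whereas GRHL1 rose by 1.32 ± 0.13. The other one called higher, GATA2, lost its call without erastin 1, erastin 2 or erastin 3 (limma with Benjamini-Hochberg adjustment, adjusted p = 0.0753, 0.0666 and 0.0675). Mesenchymal genes divided evenly, with 7 of 18 tested genes higher and 7 lower, or 4 lower without DMSO 2, erastin 2 or erastin 3. SNAI1, a repressor of CDH1, was at 2.56, 3.74 and 3.87 FPKM and 40.97, 39.2 and 37.2 FPKM. SNAI2 was at 2.096, 1.67 and 1.41 FPKM and 23.3, 26.1 and 25.4 FPKM. VIM, in contrast, fell by 1.62, and the difference in CDH2, which encodes N-cadherin, was -0.03 ± 0.16 (limma with Benjamini-Hochberg adjustment, adjusted p = 0.886), with overlapping groups at 15.04, 10.8 and 10.7 FPKM and 11.98, 10.9 and 12.5 FPKM. Its sign changed to 0.12 without DMSO 1.

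The 250 bases before the CLDN4 start in RefSeq (GRCh38.p14, chr7:73830746-73830995, plus strand) are shown because CLDN4 is the marker with the large fall; capitals mark matches to the AP-1 element TGANTCA, where N is any base, on either strand.
CLDN4: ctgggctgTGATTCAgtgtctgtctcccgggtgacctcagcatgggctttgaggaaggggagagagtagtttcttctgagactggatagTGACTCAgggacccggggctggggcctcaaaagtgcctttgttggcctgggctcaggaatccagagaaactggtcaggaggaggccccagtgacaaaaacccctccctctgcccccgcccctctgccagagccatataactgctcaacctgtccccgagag
This element was present in 4.65% of promoters of genes called lower, 4.399% of those called higher and 4.05% of those not called, against 7.73% of all 27195 promoters of the table in windows from 250 bases before to 50 after the start. The RefSeq start lies inside the longer gene span that the deposited table gives for CLDN4. A match is a description of letters, and nothing about binding was measured.

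Ligands and receptors of the EGF family moved in both directions, with 8 of 12 tested genes lower and 2 higher. AREG, which encodes amphiregulin and neighbours EREG on chromosome 4, was at 92.1, 91.7 and 89.2 FPKM under DMSO and 3.13, 3.48 and 3.404 FPKM under erastin. HBEGF, another ligand of the EGF receptor, took the opposite course, at 12.05, 11.8 and 12.2 FPKM and 107, 105 and 111 FPKM. The receptor gene EGFR was at 12.8, 10.8 and 9.903 FPKM and 1.47, 1.72 and 1.69 FPKM. ERBB3 was at 12.7, 11.5 and 12.1 FPKM and 1.85, 2.15 and 1.69 FPKM. The libraries of a group agreed closely for AREG and HBEGF, DMSO 1 included.

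Feedback genes of the ERK kinase pathway, which lies downstream of these receptors, had 12 of 22 tested genes lower and 6 higher. DUSP5, a nuclear phosphatase of ERK, was at 197, 260.3 and 269.8 FPKM under DMSO and 37.6, 34.2 and 34.7 FPKM under erastin. DUSP6, the cytoplasmic phosphatase of ERK, was at 39.7, 35.5 and 32.9 FPKM and 116, 116 and 123 FPKM. The ephrin receptor genes EPHA2 and EPHA4 also parted, with differences of -1.99 ± 0.27 and 2.62 ± 0.12. Among AP-1, EGR and NR4A transcription factors 15 of 26 tested genes were higher (57.7%) and 7 lower, or 4 lower without DMSO 2, erastin 1, erastin 2 or erastin 3. JUNB, which binds AP-1 elements as a dimer, was at 21.5, 48.4 and 61.3 FPKM and 289, 217 and 195 FPKM. NR4A3, an orphan nuclear receptor, was at 0.613, 0.373 and 0.270 FPKM and 16.1, 17.2 and 16.5 FPKM. Among the 26, 3 reached 1 FPKM in erastin libraries alone, NR4A3 with them, and 1 in DMSO libraries alone. The filter fixes the direction of these genes. FOSL1, another AP-1 subunit, was at 199.6, 342 and 369 FPKM and 32.7, 29.8 and 28.2 FPKM. EGR1 was at 27.6, 47.5 and 39.7 FPKM and 2.45, 2.47 and 2.46 FPKM. Immediate early genes therefore did not move as a block, with FOSL1 and EGR1 down and ATF3 and JUNB up in all erastin libraries.

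Secreted and surface factors followed. Of 15 tested genes of tissue factor and plasminogen activation 11 were lower and 2 higher, with a median of -1.70. PLAT, tissue plasminogen activator, was at 51.8, 70.3 and 78.5 FPKM under DMSO and 3.96, 3.14 and 3.63 FPKM under erastin, while its inhibitor SERPINI1 was among the leading rises. SERPINE2, which encodes protease nexin 1, fell by 2.95. Of 10 tested S100 calcium-binding proteins 7 were lower and none higher, and the lowest S100P level under DMSO, in DMSO 1, was still above every erastin library at 179, 318 and 488 FPKM and 27.5, 28.1 and 20.2 FPKM. Of 21 tested NF-kB targets 14 were lower and 5 higher; the chemokine CXCL1 was at 39.7, 35.02 and 37.2 FPKM and 1.33, 1.02 and 1.46 FPKM. TNFAIP3, which encodes the NF-kB inhibitor A20, was at 1.53, 2.23 and 2.37 FPKM and 16.9, 16.6 and 18.1 FPKM.

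Wnt pathway genes had 7 of 12 tested members lower and 2 higher. Among the 12, 3 reached 1 FPKM in DMSO libraries alone and 1 in erastin libraries alone. LGR5, an R-spondin receptor, was at 20.2, 14.2 and 11.6 FPKM under DMSO and 0.901, 1.07 and 0.880 FPKM under erastin. AXIN2, a feedback inhibitor that Wnt signalling induces, was at 1.38, 1.88 and 2.05 FPKM and 4.93, 4.78 and 4.55 FPKM. Of 21 tested genes that YAP and TEAD regulate 12 were higher (57.1%) and 7 lower. CCN2, a matricellular protein, was at 51.7, 54.2 and 52.4 FPKM and 871, 726 and 819 FPKM, and with that became the fourth most abundant nuclear transcript of the erastin libraries. F3 and FJX1, from the same list, fell by 4.86 and 2.56. In the BMP pathway FST, which encodes the activin antagonist follistatin, was at 162, 132 and 124 FPKM and 14.7, 13.1 and 13.7 FPKM, while ID2 was at 28.2, 27.6 and 25.4 FPKM and 105, 95.6 and 97.8 FPKM.

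The target of erastin showed small changes. SLC7A11, the cystine-carrying subunit of system xc- at chr4:138164097-138242349, was at 53.2, 33.8 and 27.1 FPKM in DMSO 1 to 3 and 57.4, 63.9 and 59.9 FPKM in erastin 1 to 3. The groups did not overlap, but DMSO 1 lay just below the lowest erastin library. The difference was 0.71 ± 0.24 (limma with Benjamini-Hochberg adjustment, adjusted p = 0.0337) and 0.97 without DMSO 1. The call was lost without DMSO 2 (limma with Benjamini-Hochberg adjustment, adjusted p = 0.0963), DMSO 3 (0.0761), erastin 1 (0.0739), erastin 2 (0.102) or erastin 3 (0.0866). SLC3A2, the chaperone subunit of the transporter, was at 78.6, 140.3 and 152 FPKM and 142, 113 and 114 FPKM. Its groups overlapped, and the difference was 0.04 ± 0.26 (limma with Benjamini-Hochberg adjustment, adjusted p = 0.911) and -0.26 without DMSO 1.

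GPX4, the lipid peroxide reductase at chr19:1103926-1106791, was at 82.8, 123 and 151 FPKM under DMSO and 75.05, 65.8 and 65.3 FPKM under erastin. The groups did not overlap, with DMSO 1 closest to the erastin libraries, and the difference was -0.74 ± 0.22 (limma with Benjamini-Hochberg adjustment, adjusted p = 0.0218). This call was lost without DMSO 2, erastin 2 or erastin 3 (limma with Benjamini-Hochberg adjustment, adjusted p = 0.0671, 0.0722 and 0.0731) and when libraries were scaled to their protein-coding total (0.0760). Of 18 tested genes of lipid peroxide defence 11 were lower and 2 higher (61.1% and 11.1%). GCH1, the first enzyme of tetrahydrobiopterin synthesis, was at 13.9, 9.54 and 10.3 FPKM and 38.1, 37.5 and 42.8 FPKM, and the peroxiredoxin PRDX6 rose by 0.80 ± 0.12. AIFM2, which encodes the ubiquinone reductase FSP1, was at 8.05, 12.4 and 15.2 FPKM and 5.79, 5.11 and 4.71 FPKM.

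Glutathione genes were divided, with 4 of 14 tested higher and 6 lower. GCLC, the catalytic subunit of the rate-limiting ligase of glutathione synthesis, was at 13.6, 11.3 and 10.3 FPKM under DMSO and 33.7, 34.3 and 34.4 FPKM under erastin, whereas its modifier subunit GCLM was at 15.02, 9.21 and 8.601 FPKM and 7.205, 8.38 and 8.08 FPKM with a difference of -0.39 ± 0.21 (limma with Benjamini-Hochberg adjustment, adjusted p = 0.141). CHAC1, which degrades glutathione and is widely used as a transcript marker of system xc- inhibition, fell by 1.67, from 69.6, 137 and 161 FPKM to 40.6, 31.4 and 35.6 FPKM. Of 16 tested genes of polyunsaturated lipid peroxidation 4 were higher and 5 lower. ACSL4, which loads arachidonate onto coenzyme A, was at 36.9, 22.5 and 17.8 FPKM and 11.3, 11.5 and 13.1 FPKM. ACSL3, its paralog with a role in monounsaturated lipids, was at 29.9, 20.2 and 19.5 FPKM and 53.9, 57.8 and 60.3 FPKM. DMSO 1 lay away from the erastin libraries for ACSL4 and toward them for ACSL3. PTGS2, often read as a marker of ferroptosis, stayed below 1 FPKM in every library and was not tested.

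Of 20 tested iron genes 5 were higher (25%) and 9 lower (45%), with a median of -0.24. TFRC, NCOA4 and HMOX1, given next, rose, against the direction of most calls in the list. TFRC, the transferrin receptor that imports iron, was at 114, 93.1 and 83.9 FPKM under DMSO and 219, 209 and 226 FPKM under erastin. NCOA4, the receptor that delivers ferritin for degradation, was at 49.7, 34.7 and 33.8 FPKM and 93.2, 92.8 and 97.7 FPKM. HMOX1, haem oxygenase 1, was at 4.55, 6.17 and 6.798 FPKM and 25.3, 18.3 and 17.8 FPKM. The ferritin heavy chain gene FTH1 was at 512, 1476 and 1482 FPKM and 1316, 1071 and 1004 FPKM. Its groups overlapped, with DMSO 1 far below every other library, and the difference was 0.11 ± 0.42 (limma with Benjamini-Hochberg adjustment, adjusted p = 0.826). Without DMSO 1 it was -0.40 and was called lower (limma with Benjamini-Hochberg adjustment, adjusted p = 0.035).

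Genes downstream of eIF2alpha phosphorylation went both ways. Among 16 tested regulators of the ATF4 pathway 7 were higher and 7 lower. ATF4 itself was at 213, 288 and 315 FPKM under DMSO and 239, 197 and 209 FPKM under erastin, with overlapping groups and a difference of -0.32 ± 0.18 (limma with Benjamini-Hochberg adjustment, adjusted p = 0.145). Without DMSO 1 the difference was -0.49 and was called lower (limma with Benjamini-Hochberg adjustment, adjusted p = 0.00463). DDIT3, which encodes the transcription factor CHOP, was at 42.5, 45.2 and 56.8 FPKM and 162, 130.0 and 135 FPKM. PPP1R15A, the phosphatase subunit that reverses eIF2alpha phosphorylation, was at 42.1, 53.8 and 65.3 FPKM and 289, 244 and 237 FPKM. CEBPB, a partner of CHOP and ATF4, was at 58.7, 149 and 152 FPKM and 37.2, 28.7 and 28.6 FPKM. DDIT4, an inhibitor of the kinase mTORC1, was at 36.4, 106 and 124 FPKM and 19.4, 13.7 and 13.003 FPKM. For CEBPB and DDIT4, DMSO 1 lay well below DMSO 2 and DMSO 3 and still above the erastin libraries.

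Amino acid synthesis and transport genes, many of them ATF4 targets, had 19 of 25 tested members lower (76%) and 3 higher (12%), with a median of -1.75. MTHFD1L, a mitochondrial folate enzyme at chr6:150865549-151101887, was at 23.3, 25.8 and 24.7 FPKM under DMSO and 1.53, 1.35 and 1.37 FPKM under erastin. MTHFD2, of the same pathway, was at 152, 117 and 116 FPKM and 17.3, 15.5 and 17.7 FPKM. PCK2, mitochondrial phosphoenolpyruvate carboxykinase, was at 38.99, 54.99 and 62.1 FPKM and 5.94, 4.83 and 4.37 FPKM. ASNS, asparagine synthetase at chr7:97851677-97872542, went the other way at 3.13, 3.49 and 3.35 FPKM and 13.96, 13.9 and 14.1 FPKM. In ASNS and MTHFD1L the 3 libraries of each group, DMSO 1 included, were nearly equal.

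The upstream sequences of ASNS and MTHFD1L are shown because both hold the amino acid response element TGATGNAA, the site of ATF4 and its partners, and their transcripts moved in opposite directions, and that of PPP1R15A because it holds the cyclic AMP response element TGACGTCA. Each run is the 250 bases before the first RefSeq start listed for the gene (GRCh38.p14), which need not be the start of the span in the deposited table, read on the strand of the gene, with matches on either strand in capitals: ASNS at chr7:97872409-97872658, minus strand, MTHFD1L at chr6:150866236-150866485, plus strand, and PPP1R15A at chr19:48872171-48872420, plus strand.
ASNS: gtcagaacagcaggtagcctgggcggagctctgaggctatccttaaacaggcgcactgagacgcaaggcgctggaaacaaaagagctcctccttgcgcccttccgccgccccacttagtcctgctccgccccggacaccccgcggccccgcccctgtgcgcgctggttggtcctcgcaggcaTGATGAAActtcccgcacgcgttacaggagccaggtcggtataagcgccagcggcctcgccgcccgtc
MTHFD1L: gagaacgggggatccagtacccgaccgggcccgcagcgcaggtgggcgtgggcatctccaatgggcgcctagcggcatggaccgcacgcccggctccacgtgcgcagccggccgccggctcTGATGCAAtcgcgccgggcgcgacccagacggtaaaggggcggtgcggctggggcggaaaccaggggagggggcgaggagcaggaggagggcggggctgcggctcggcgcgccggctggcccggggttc
PPP1R15A: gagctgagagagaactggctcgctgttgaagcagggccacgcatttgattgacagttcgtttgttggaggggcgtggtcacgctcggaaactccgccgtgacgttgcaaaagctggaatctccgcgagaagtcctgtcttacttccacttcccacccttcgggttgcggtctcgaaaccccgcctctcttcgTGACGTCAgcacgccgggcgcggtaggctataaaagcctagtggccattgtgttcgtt
In windows that run from 250 bases before to 50 bases after the start, the amino acid response element was present in 7 of 19 matched promoters of the amino acid list, namely those of ASNS, BCAT1, GOT1, MTHFD1L, SLC38A1, SLC3A2 and SLC7A1, against 3.67% of all promoters. ASNS and GOT1 of these 7 were called higher, SLC3A2 was not called, and BCAT1, MTHFD1L, SLC38A1 and SLC7A1 were called lower. Among tested genes the amino acid response element was present in 1.74% of promoters of those called higher, 1.92% of those called lower and 1.33% of those not called. For the cyclic AMP response element these shares were 4.33%, 2.698% and 3.28%.

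Of 24 tested genes of endoplasmic reticulum chaperones and the unfolded protein response 9 were higher and 3 lower, or 8 lower without DMSO 1 and 5 lower without DMSO 3. HSPA5, which encodes the chaperone BiP at chr9:125234853-125241343, was at 283, 249 and 233 FPKM under DMSO and 692, 673 and 721 FPKM under erastin. HERPUD1, of the degradation machinery for misfolded proteins, was at 35.2, 39.1 and 40.7 FPKM and 166, 159 and 157 FPKM. DNAJC3, a cochaperone of BiP, was at 12.3, 8.63 and 7.87 FPKM and 48.1, 49.3 and 50.6 FPKM. PDIA4, a disulfide isomerase, fell by 1.02 on the log2 scale, and HSP90B1, which encodes the chaperone GRP94, was at 252, 164 and 147 FPKM and 125, 132 and 140.4 FPKM with a difference of -0.46 ± 0.21 (limma with Benjamini-Hochberg adjustment, adjusted p = 0.0917). HSP90B1 was called lower without DMSO 1 or DMSO 3 (limma with Benjamini-Hochberg adjustment, adjusted p = 0.0488 and 0.0378). Chaperones of this compartment therefore parted, with HSPA5 up and PDIA4 down in every erastin library.

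Cytosolic heat shock proteins had 14 of 23 tested members higher (60.9%) and 2 lower, or 5 lower without DMSO 1, and a median of 0.65. HSPA1A, an inducible HSP70 at chr6:31815543-31817946, was at 4.74, 6.51 and 8.75 FPKM under DMSO and 73.1, 62.4 and 60.5 FPKM under erastin; its near-identical neighbour HSPA1B was at 5.66, 9.901 and 10.4 FPKM and 69.9, 62.8 and 59.3 FPKM, and how the authors divided reads between the pair is not known here. DNAJB1, the main HSP40, was at 34.8, 43.6 and 45.04 FPKM and 204, 179 and 192 FPKM. CRYAB, a small heat shock protein, was at 0.0816, 0.0947 and 0.146 FPKM and 5.99, 5.502 and 5.59 FPKM. It reached 1 FPKM in erastin libraries alone, so the filter fixes its direction. Of the 23 tested members 2 entered that way (8.70%, against 10.5% of all tested genes). The CCT chaperonin subunit genes CCT2 and CCT5 fell by 0.65 and 0.83.

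Metal handling genes included a zinc exporter that rose strongly. SLC30A1, which moves zinc out of the cell, was at 13.3, 10.6 and 9.51 FPKM under DMSO and 171, 189 and 179 FPKM under erastin. MT1X, a metallothionein that binds zinc and copper, was at 4.35, 3.25 and 4.98 FPKM and 22.5, 21.6 and 24.2 FPKM at chr16:56682470-56684196, and MTF1, the zinc-sensing factor that activates both, was at 4.85, 3.77 and 3.67 FPKM and 19.3, 19.8 and 20.6 FPKM. MT1A fell by 2.66, and MT2A, the most abundant of the family here, was at 159.7, 290.0 and 356 FPKM and 375, 385 and 386 FPKM with a difference of 0.58 ± 0.28 (limma with Benjamini-Hochberg adjustment, adjusted p = 0.108). MT2A was called higher without DMSO 3, at 0.82 (limma with Benjamini-Hochberg adjustment, adjusted p = 0.0302), by quantile normalization, at 1.05 (limma with Benjamini-Hochberg adjustment, adjusted p = 0.00377), by protein-coding scaling, at 0.80 (limma with Benjamini-Hochberg adjustment, adjusted p = 0.0409), and by the same without mitochondrial genes, at 0.76 (limma with Benjamini-Hochberg adjustment, adjusted p = 0.0284). Of 9 tested genes of this list 4 were higher and 2 lower, or 1 lower without DMSO 2, DMSO 3, erastin 2 or erastin 3.

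Upstream sequences of 1 gene from each of these 3 lists are shown because their known elements are present: the endoplasmic reticulum stress element (ERSE, a CCAAT box and a CCACG box 9 bases apart) in HSPA5 (chr9:125241344-125241593, minus strand), a heat shock element core GAANNTTC in HSPA1A (chr6:31815293-31815542, plus strand) and the metal response element TGCNCNCG in MT1X (chr16:56682220-56682469, plus strand), in capitals on either strand. The CCAAT box is part of the first of these elements.
HSPA5: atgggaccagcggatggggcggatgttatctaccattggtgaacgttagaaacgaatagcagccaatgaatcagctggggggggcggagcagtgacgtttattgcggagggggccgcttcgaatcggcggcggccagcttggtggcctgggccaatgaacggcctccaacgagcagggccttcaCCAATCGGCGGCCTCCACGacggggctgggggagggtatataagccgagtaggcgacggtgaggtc
HSPA1A: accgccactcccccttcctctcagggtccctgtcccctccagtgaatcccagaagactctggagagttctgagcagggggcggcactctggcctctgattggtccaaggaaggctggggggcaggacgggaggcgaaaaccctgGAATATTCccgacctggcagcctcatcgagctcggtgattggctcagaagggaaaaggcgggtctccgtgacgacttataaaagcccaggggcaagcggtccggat
MT1X: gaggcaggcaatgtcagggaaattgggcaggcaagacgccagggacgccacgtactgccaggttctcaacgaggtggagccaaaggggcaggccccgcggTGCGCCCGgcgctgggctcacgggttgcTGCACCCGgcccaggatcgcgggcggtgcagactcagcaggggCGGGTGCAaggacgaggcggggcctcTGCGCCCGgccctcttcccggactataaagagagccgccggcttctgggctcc
The endoplasmic reticulum stress element was present in 7 of 23 matched promoters of its list, against 0.0809% of all promoters, and of those 7 HSPA5 and CALR were called higher, ERO1B and XBP1 lower, and CANX, CRELD2 and HSP90B1 were not called. The heat shock core was present in 9 of 21 matched promoters of its list, against 6.89% of all, and the metal response element in 3 of 4, those of MT1X, MT2A and SLC30A1, against 16.99% of all. Across genes, the CCAAT box was present in 42.6% of promoters of genes called higher and 31.3% of those called lower. It was present in 38.3% of those not called and 35.7% of all. Its share was 52.2% in the 255 promoters of genes that rose by 2 or more and 29.9% in the 331 of genes that fell by as much. The TATA box TATAAA was present in 18.04% and 9.06% of the same promoters, against 3.96% of those not called and 11.97% of all. Of 43 matched promoters of clustered histone genes, a list described below, 36 held the CCAAT box and 32 the TATA box. The part of these genes in the shares was not tested.

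Growth and death regulators were mixed. Of 26 tested p53 target genes 10 were higher and 11 lower, and PC3 is known to lack functional p53. GADD45B, a stress sensor, was at 7.77, 9.62 and 14.3 FPKM under DMSO and 148, 122 and 115 FPKM under erastin. CDKN1A, which encodes the cyclin-dependent kinase inhibitor p21, was at 24.9, 42.5 and 46.1 FPKM and 138, 114 and 123 FPKM. GDF15, a stress cytokine, was at 154, 443 and 485 FPKM and 34.4, 25.5 and 27.7 FPKM. MDM2, the ubiquitin ligase of p53, was at 22.7, 13.5 and 11.5 FPKM and 2.902, 3.305 and 3.42 FPKM. Of 30 tested autophagy and lysosome genes 11 were higher and 6 lower; MAP1LC3B, an autophagosome membrane protein, was at 47.1, 37.5 and 35.6 FPKM and 163, 172 and 181 FPKM. The cargo receptor SQSTM1 was at 59.2, 80.4 and 89.7 FPKM and 44.5, 40.1 and 38.6 FPKM.

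Replication and mitosis genes did not move one way, with 10 of 35 tested replication genes higher and 14 lower, and 10 of 29 tested mitosis genes higher and 5 lower, or 9 lower without DMSO 1. PCNA, the sliding clamp of DNA polymerases, was at 69.6, 67.002 and 65.6 FPKM under DMSO and 332, 319.8 and 347 FPKM under erastin. The licensing factor CDT1 was at 10.5, 22.7 and 24.5 FPKM and 6.92, 5.92 and 4.996 FPKM. CCNE2, a cyclin of the entry into S phase, was at 1.06, 1.32 and 1.45 FPKM and 11.3, 12.1 and 12.6 FPKM. CDK4 was at 29.5, 42.6 and 45.2 FPKM and 10.5, 8.502 and 7.67 FPKM, and the CDK4 inhibitor gene CDKN2D was at 3.19, 6.03 and 6.51 FPKM and 31.6, 24.7 and 25.7 FPKM. CDK1, the kinase of mitotic entry, was at 29.04, 22.8 and 20.8 FPKM and 55.6, 57.2 and 64.9 FPKM, and its activators parted, with CDC25C at 3.07, 3.03 and 2.72 FPKM and 8.96, 8.51 and 9.56 FPKM and CDC25B at 40.7, 54.3 and 54.8 FPKM and 15.2, 15.1 and 14.6 FPKM.

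Ribosome genes fell broadly. Of 75 tested cytosolic ribosomal protein genes 56 were lower (74.7%) and 1 higher, with a median of -0.90, and the list summed to 17144 to 25193 FPKM per DMSO library and 10728 to 11087 FPKM per erastin library. The gene called higher was RPS10, counted at 1.21, 0.992 and 1.08 FPKM and 3.14, 3.33 and 2.67 FPKM; 2 were called higher without DMSO 1 or DMSO 3. RPL3 was at 612, 649.7 and 755 FPKM and 232, 204 and 216 FPKM. Of 27 tested genes of MYC and ribosome biogenesis 18 were lower and 4 higher, with the nucleolar methyltransferase gene FBL at 54.4, 68.1 and 80.9 FPKM and 25.4, 22.03 and 22.1 FPKM and MXD1, a repressor that competes with MYC for MAX, at 3.03, 2.47 and 1.89 FPKM and 33.1, 34.5 and 33.9 FPKM. EEF1A1, the elongation factor and the most abundant nuclear transcript of the DMSO libraries, was at 2440, 2459 and 2430 FPKM and 823, 747 and 787 FPKM, with little spread in either group. Ribosomal protein and elongation factor genes have many processed pseudogenes, so their counts are uncertain.

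Metabolic lists were lower in the main. Of 22 tested glycolytic genes 16 were lower (72.7%) and 2 higher, with a median of -1.11. GAPDH was at 852, 908 and 875 FPKM under DMSO and 232, 215 and 234 FPKM under erastin, and the lactate exporter SLC16A3 was at 5.90003, 15.1 and 19.8 FPKM and 1.82, 1.14 and 1.43 FPKM. PFKFB3, which makes an activator of phosphofructokinase, was at 7.19, 8.28 and 8.41 FPKM and 58.1, 53.6 and 51.6 FPKM. Glycogen phosphorylases moved in opposite directions: the brain form PYGB was at 221, 365 and 398 FPKM and 91.3, 82.8 and 80.3 FPKM, while the muscle form PYGM, given above, rose. PYGM reached 1 FPKM in erastin libraries alone, so the filter fixes its direction. Of 14 tested pentose phosphate and NADPH enzymes 11 were lower and none higher. Among the 14, 2 reached 1 FPKM in DMSO libraries alone (14.3%, against 6.12% of all tested genes), so the filter fixes their direction. NNT, the mitochondrial transhydrogenase, entered that way, at 8.99, 7.52 and 6.48 FPKM and 0.301, 0.522 and 0.506 FPKM. ME1, malic enzyme 1, was at 71.2, 44.7 and 45.4 FPKM and 8.65, 10.01 and 10.5 FPKM.

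Of 30 tested genes of cholesterol and fatty acid synthesis 22 were lower (73.3%) and 2 higher, or 5 higher without DMSO 1, with a median of -1.17. SREBF1, the transcription factor of fatty acid synthesis, was at 25.5, 53.4 and 55.4 FPKM under DMSO and 2.56, 2.18 and 1.81 FPKM under erastin. SREBF2, that of cholesterol synthesis, was at 31.2, 46.1 and 45.7 FPKM and 6.98, 7.22 and 6.98 FPKM. Of 39 tested nuclear genes of the respiratory chain 24 were lower and 2 higher, with 4 higher without DMSO 3 and 1 higher without erastin 2 or erastin 3. The mRNAs of the mitochondrial genome had 2 of 13 called lower, MT-CO3 and MT-ND6, and none higher; 4 were called lower without DMSO 3, 1 without erastin 1 or erastin 2, and 1 was called higher without DMSO 1.

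**Figure D4:**
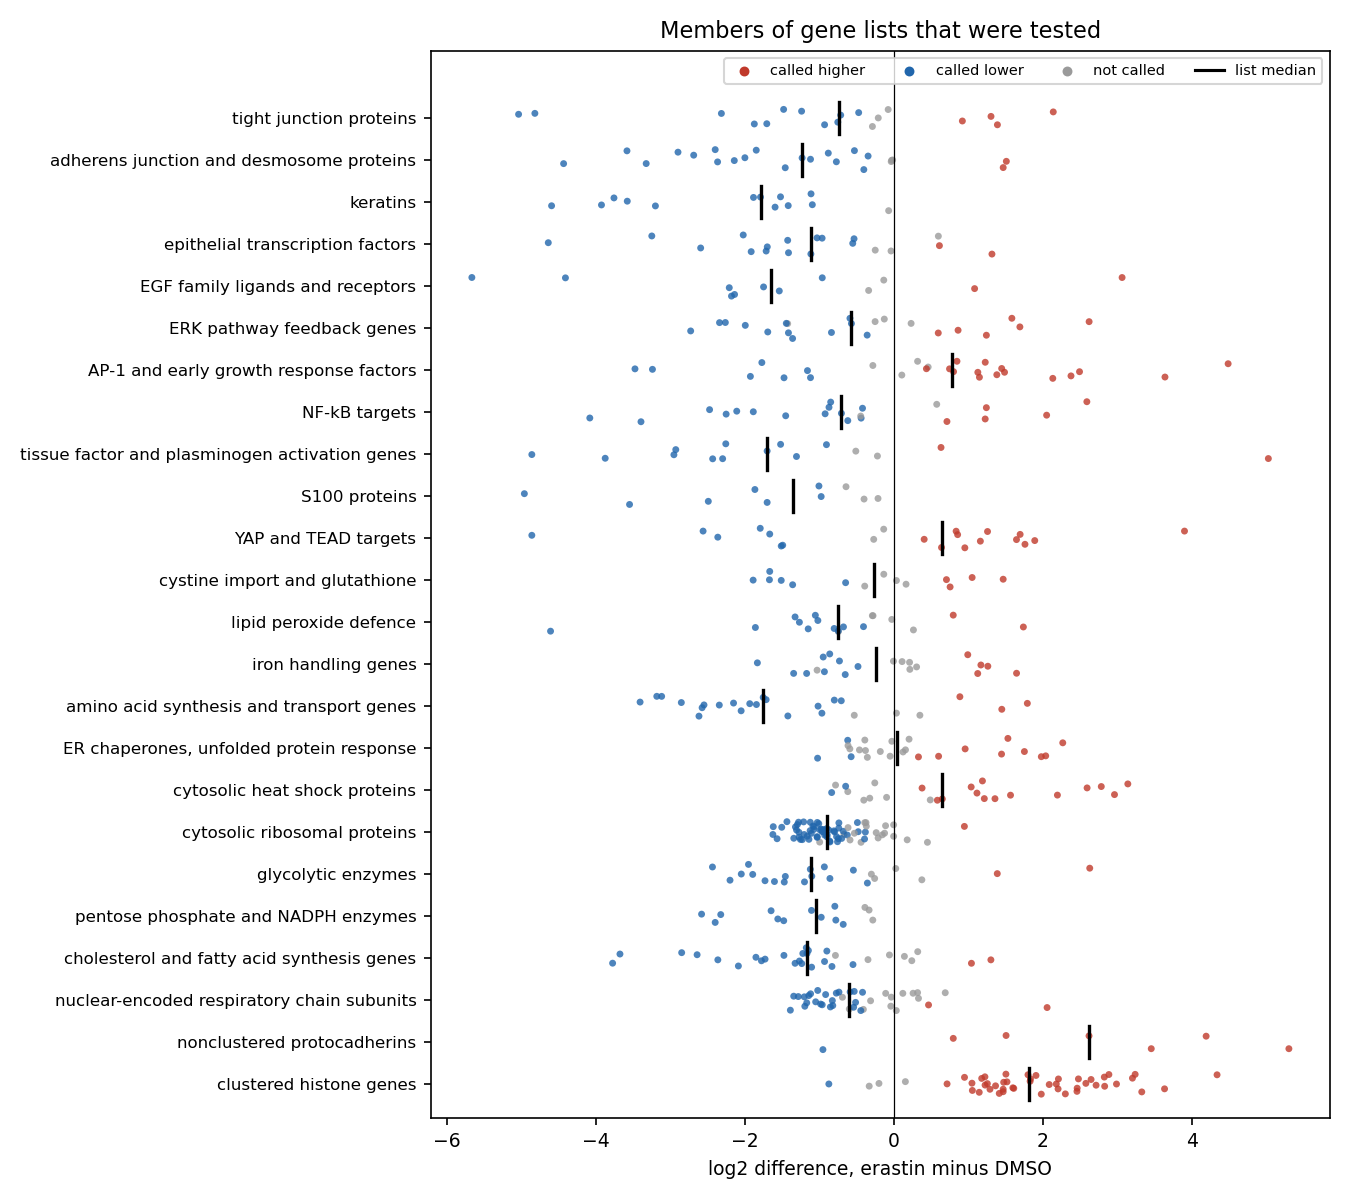
Log2 difference, erastin minus DMSO, of each tested member of 24 gene lists; red points are called higher, blue points called lower, grey points not called, and the black bar is the list median. Keratins, ribosomal proteins and the lists of metabolism lie mostly left of 0, and heat shock proteins and clustered histone genes mostly right of it. The filter fixes the direction of 5 of 13 keratins, 5 of 19 epithelial transcription factors and 16 of 48 histone genes. Protocadherins lie to the right as well, which the filter fixes for 6 of 7.

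Clustered histone genes, a list added after their values were seen, were higher almost throughout, with 44 of 48 tested genes called higher (91.7%), 1 lower and a median of 1.82; 16 of the 48 reached 1 FPKM in erastin libraries alone. The list summed to 592 to 787 FPKM per DMSO library and 2285 to 2470 FPKM per erastin library. H2BC12, a histone H2B gene, was at 76.7, 145 and 137 FPKM under DMSO and 923, 769 and 789.5 FPKM under erastin. H1-4, a linker histone gene, was at 0.855, 1.47 and 1.51 FPKM and 45.8, 51.2 and 38.1 FPKM. Most clustered histone transcripts lack a poly(A) tail, and snRNA genes, which also lack one, were higher in 66 and lower in 6 of 129 tested, of which 36 entered through erastin libraries alone. The shares of such RNAs depend on how RNA was selected, and the part of that selection here was not tested.

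Nonclustered protocadherins, adhesion proteins best known from neurons, had 7 of 11 listed genes in the test. Of these 6 reached 1 FPKM in erastin libraries alone, so their rise is fixed by the filter, and the list gives no count of its own. PCDH10 was at 0.0211, 0.0476 and 0.0488 FPKM under DMSO and 19.4, 17.7 and 16.97 FPKM under erastin, PCDH17 at 0, 0.0495 and 0.00846 FPKM and 10.5, 10.3 and 9.76 FPKM, and PCDH18 at 0.0428, 0.104 and 0.0956 FPKM and 5.41, 5.46 and 6.09 FPKM. PCDH1 was the member that fell, from 2.196, 3.55 and 3.36 FPKM to 1.12, 1.13 and 0.947 FPKM. Of 12 tested neuronal genes 6 likewise entered through erastin libraries alone, and 7 were higher and 1 lower, or 2 lower without DMSO 1; SYT4, a synaptotagmin, was at 0.0166, 0 and 0 FPKM and 3.28, 3.56 and 3.75 FPKM. TUBB3, a neuronal beta-tubulin, was at 0.291, 0.266 and 0.337 FPKM and 4.13, 3.796 and 3.84 FPKM. REST, the repressor of neuronal genes, rose by 1.35 ± 0.17. Among imprinted genes 5 of 12 tested were higher and 3 lower, or 5 lower without DMSO 1, with NNAT at 0.701, 1.46 and 1.23 FPKM and 10.8, 10.1 and 9.21 FPKM and GRB10 at 21.8, 22.9 and 23.3 FPKM and 5.49, 5.48 and 5.61 FPKM.

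Among chromatin modifiers that silence genes 7 of 28 tested were higher and 13 lower. UHRF1, the partner of maintenance DNA methylation, was at 3.98, 5.91 and 7.26 FPKM under DMSO and 1.38, 1.15 and 0.797 FPKM under erastin. HDAC1 was at 40.1, 45.4 and 48.2 FPKM and 17.5, 14.4 and 15.8 FPKM. TET2, a methylcytosine dioxygenase, was at 1.596, 1.17 and 0.957 FPKM and 3.83, 4.13 and 4.36 FPKM. Transcription factors as a class had 425 of 987 tested genes higher (43.1%) and 287 lower (29.1%). The C2H2 zinc finger family had 243 of 456 tested genes higher (53.3%) and 85 lower (18.6%), while the basic helix-loop-helix family had 13 of 53 higher and 25 lower. Of 8 tested T-box factors 6 were higher and none lower, with TBX3 at 5.86, 7.17 and 7.51 FPKM and 72.8, 69.7 and 66.5 FPKM.

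Among tested genes, lncRNAs had a larger share of calls in the higher direction than protein-coding genes, part of which the filter fixes. Of 11810 tested protein-coding genes 3522 were higher (29.8%) and 4298 lower (36.4%), with a median of -0.13, whereas of 1714 lncRNA genes 840 were higher (49.0%) and 373 lower (21.8%), with a median of 0.50. Of the lncRNA genes 526 (30.7%) reached 1 FPKM in erastin libraries alone and 174 (10.2%) in DMSO libraries alone, against 569 and 653 of the protein-coding genes. AL606500.1 at chr1:154671593-154678345 had the largest rise among lncRNAs, at 0.293, 0.396 and 0.813 FPKM under DMSO and 37.9, 34.8 and 35.3 FPKM under erastin. AC138819.1, AC011676.1, AC007952.4 and AC020661.3 followed with rises of 4.06 to 4.28. LINC02582 at chr18:73324941-73349879 had the largest fall, at 244, 171 and 153 FPKM and 5.29, 5.51 and 5.23 FPKM, followed by AP000547.3 at 172, 142 and 136 FPKM and 6.39, 6.72 and 6.35 FPKM, AC005392.2, AC008517.1 and AC012355.1. Overlapping and antisense transcripts cannot be separated without the strand setting, which the labels do not give.

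**Figure D5:**
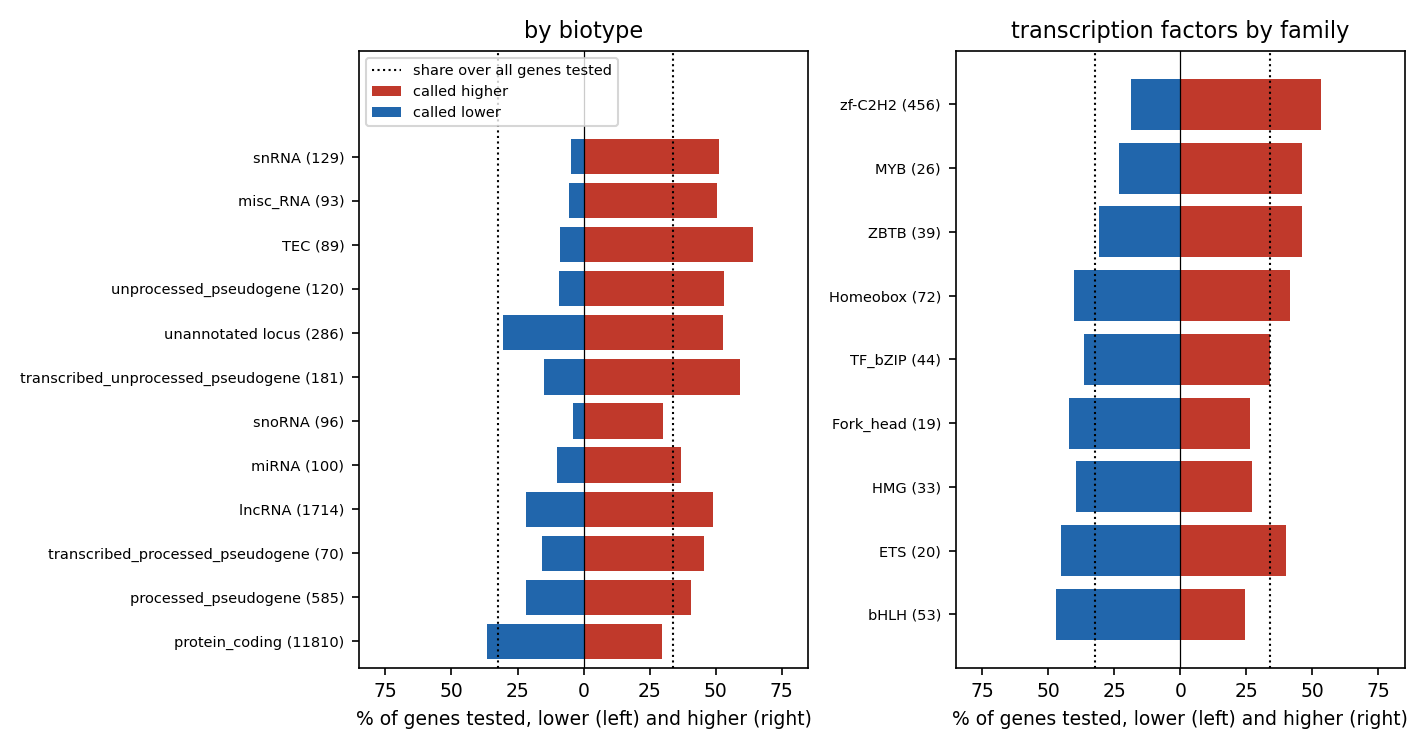
Share of tested genes called lower (blue, left) and higher (red, right), by biotype as the deposited table gives it and by transcription factor family, with the number tested in brackets; dotted lines are the shares over all tested genes, 32.4% lower and 34.0% higher. Noncoding classes, in which more genes entered through erastin libraries alone, lie below the lower share, and C2H2 zinc fingers exceed the higher share while bHLH factors exceed the lower share.

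Genes near silence under one condition were counted as well. Under 0.1 FPKM in all DMSO libraries and at 1 FPKM or more in all erastin libraries were 293 genes, 79 of them protein-coding and 55 lncRNA. The reverse held for 48 genes, 19 of them protein-coding and 13 lncRNA. Among the first set CSF1R, the receptor of macrophage colony-stimulating factor, was at 0.0278, 0.0538 and 0.0414 FPKM and 9.28, 9.62 and 8.18 FPKM. LTA, which encodes lymphotoxin alpha, was at 0.0412, 0.0797 and 0 FPKM and 5.38, 5.42 and 5.72 FPKM. Both are best known from leukocytes. Of the 10 leukocyte markers CD14, at 0.174, 0.420 and 0.0862 FPKM and 1.41, 1.14 and 1.43 FPKM, and NKG7, at 0, 0.376 and 0 FPKM and 1.18, 1.21 and 1.55 FPKM, were also called higher, 7 stayed under 1 FPKM in every library, CD3D and CD2 among them at 0, and the part of other cells was not tested.

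The most abundant nuclear transcripts also changed order. Ranked by mean FPKM without the mitochondrial genome, 5 of the first 10 genes and 53 of the first 100 were shared between the groups. FTH1 and FTL, the ferritin chains, led the erastin libraries, FTL at 967, 872 and 893 FPKM beside 576, 906 and 918 FPKM under DMSO with overlapping groups and no call, and were followed by H2BC12 and CCN2. TUBB4B, a beta-tubulin, was at 89.8, 164 and 171 FPKM under DMSO and 769, 614 and 606 FPKM under erastin and entered the first 10, which GAPDH and ACTG1 left.

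DMSO 1 lay between its group and the erastin libraries for part of the called genes. Over the 5593 genes called with a difference of 1 or more, its median displacement from the mean of DMSO 2 and DMSO 3 was 5.51% of the way to the erastin mean, with 1636 genes at 25% or more toward erastin and 950 at 25% or more away from it. Genes that fell were displaced by 25% or more toward erastin in 982 of 2648 cases, and genes that rose in 654 of 2945. Among protein-coding genes called with a difference of 3 or more, DMSO 1 lay farthest toward erastin in GDF15, given above, in AMN, at 9.73, 27.3 and 29.1 FPKM in DMSO 1 to 3 and 0.795, 0.721 and 0.909 FPKM under erastin, and in SOX12, at 13.5, 30.3 and 37.1 FPKM and 2.38, 1.85 and 1.86 FPKM. In these 3 genes DMSO 1 lay below DMSO 2 and DMSO 3 and above every erastin library.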

How the data were processed

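RNA was extracted with TRIzol and made into libraries with an Illumina TruSeq RNA kit, per the labels' protocols. Reads were aligned with HISAT2 2.0.5 to hg38, per the submitters' processing notes. How reads were counted, with which strand setting and annotation, is not given in the labels. The authors deposited FPKM per gene in a single PC3 table. The steps of low values corresponded to whole reads within 0.1 reads in 100% of values, which gave 13709558 to 16350657 reads per library; these served only for depth and for 1 alternative.

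Values were tested as log2(FPKM + 1) with limma 3.58.1 in R 4.3.3 (variance trend, two-sided, Benjamini-Hochberg threshold 0.05) over genes at 1 FPKM or more in at least 3 of 6 libraries. The alternatives were other pseudocounts, filters, scalings, a replicate block, voom and leaving out each library. On simulated data for this comparison 200 of 13190 genes were changed, all with a mean of at least 5 FPKM under DMSO. The spread between simulated libraries was set in advance and not taken from the deposited ones. In them 99% of 2-fold and 47% of 1.5-fold changes were recovered, with 12 false calls among the unchanged genes. A far larger share of genes was called in the deposited libraries, so these rates need not hold there.

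Gene lists, members and tests were chosen with earlier results of these data known, so lists carry counts and medians and no test. The histone list and the heat shock, endoplasmic reticulum stress and metal motifs were added after values were seen. By rule, 322 genes were named: the marker and target genes, the 15 largest protein-coding and 5 largest lncRNA changes each way without overlap, up to 5 called members per list with up to 3 that went against the rest, the most abundant genes and those with DMSO 1 nearest erastin. KLK3, VWF and PTGS2 were not tested, and 21 further genes were chosen after their values were seen, among them HSPA5, H2BC12, FTH1, CDH1, CSF1R and LTA. Promoter windows came from RefSeq (GRCh38.p14), with 9537 of 11810 tested protein-coding genes matched by symbol. Some genes are not reported here.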

Additional observations from a re-analysis of the deposited data

How the results depend on the processing

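Calls over all genes stayed within 1.5 times the main 10214 in every alternative run except a filter on a mean of at least 5 FPKM, which tested 8113 genes and called 5240, with 2446 higher and 2794 lower, and 1319 and 1597 of them by 1 or more. These are counts and not shares of the genes tested, which numbered 15371 in the main run. Without a filter 39002 genes were tested and 13209 called, a far smaller share than in the main run. Leaving out each library gave 8659 to 12354 calls. Scaling to the protein-coding total moved the median over all genes by 0.18 on the log2 scale, or 0.15 without mitochondrial genes (an alternative chosen after seeing the data), and moved the share of higher calls from 51.2% to 59.9% and 58.0%. The share was 59.0% without a filter and 47.8% by voom, which called 4947 genes higher and 5413 lower. Under protein-coding scaling 4 mesenchymal, 3 mitosis and 3 autophagy genes were lower, and 6 respiratory chain and 3 ribosomal protein genes higher. With voom, 8 endoplasmic reticulum, 8 mitosis and 6 mitochondrial mRNA genes were lower. Without a filter, SLC7A11, GPX4 and MT-CO3 were among those that lost their calls (limma with Benjamini-Hochberg adjustment, adjusted p = 0.0715, 0.0508 and 0.235). The causes were not tested.

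Among named genes, signs changed under the alternatives run only for genes not called as reported. One of them, FTH1, was then called lower, without DMSO 1. Quantile normalization gave 0.11 for ATF4 and 0.040 for CDH2, and it gave 0.77 for FTL, reported at 0.22 with no call, and called it higher (limma with Benjamini-Hochberg adjustment, adjusted p = 0.000649). For CDH2, median-ratio scaling gave 0.027, the protein-coding total 0.18 and the same without mitochondrial genes 0.14. SLC3A2 was at -0.051 by voom. Leaving out each library gave -0.26 (without DMSO 1) to 0.21 (without DMSO 3) for SLC3A2, -0.11 (without DMSO 3) to 0.12 (without DMSO 1) for CDH2, -0.40 (without DMSO 1) to 0.37 (without DMSO 3) for FTH1, -0.0043 (without DMSO 1) to 0.33 (without DMSO 3) for FTL, -0.016 (without DMSO 3) to 0.24 (without DMSO 1) for MT-ND4 and -0.050 (without DMSO 3) to 0.83 (without DMSO 1) for MT-ND4L. FTH1 was also at -0.0022 without erastin 1, SLC3A2 at -0.070 without erastin 1, CDH2 at 0.023 without erastin 2 and MT-ND4 at -0.0097 without erastin 3.

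No pairing by replicate number is stated in the labels. The deviations of same-numbered libraries from their group means correlated at -0.380, -0.0135 and -0.311, against -0.230 to 0.377 for libraries of different numbers. Deviations within a group of 3 depend on each other, so these values cannot settle whether the samples were paired. A replicate block gave 9068 calls, with 4683 higher and 4385 lower, 2943 and 2645 of them by 1 or more. With 3 libraries a group, 47% of simulated 1.5-fold changes were recovered, but no simulated library stood apart as DMSO 1 does. The share recovered in the deposited libraries is therefore not known, and genes below 1 FPKM were not assessed.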

Other observations

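Lists not described above were counted in the same way, against 34.0% of all tested genes higher and 32.4% lower. Of 27 tested interferon-stimulated genes 7 were higher and 7 lower, or 12 lower without DMSO 1. BST2, which encodes tetherin and retains budding viruses, was at 40.6, 36.7 and 48.1 FPKM under DMSO and 6.44, 5.32 and 5.53 FPKM under erastin, and IFIT2, which binds viral RNA, rose by 1.29 ± 0.18. Of 30 tested proteasome subunits 6 were higher and 9 lower, or 17 lower without DMSO 1; the number higher was 2 to 3 without any one of DMSO 2, DMSO 3 and the erastin libraries. PSMB5, the chymotrypsin-like subunit, was at 67.6, 85.6 and 110.0 FPKM and 37.1, 32.9 and 28.99 FPKM, and PSMA6, of the outer ring, was at 1.19, 0.755 and 0.983 FPKM and 3.205, 2.98 and 2.77 FPKM.

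Of 31 tested translation factors 6 were higher and 13 lower. EIF4EBP1, which represses cap-dependent translation, was at 88.1, 184 and 258 FPKM under DMSO and 30.4, 20.7 and 20.8 FPKM under erastin, while EIF4A2, an RNA helicase of initiation, was at 110.2, 80.9 and 74.5 FPKM and 224, 218 and 225 FPKM. Of 25 tested cyclins, kinases and inhibitors of G1 8 were higher and 12 lower, with CCND2, a D-type cyclin, at 28.9, 21.6 and 22.2 FPKM and 2.28, 2.85 and 2.304 FPKM. Of 17 tested genes of glycogen metabolism 5 were higher and 7 lower, or 3 higher without DMSO 2 or any one erastin library; GYS1, muscle glycogen synthase, was at 10.4, 17.4 and 16.5 FPKM and 5.62, 4.24 and 4.599 FPKM. Of 5 tested alpha-arrestins 3 were higher, ARRDC3, TXNIP and ARRDC4, and none lower; TXNIP, which binds thioredoxin, was at 84.1, 74.1 and 72.8 FPKM and 129, 123 and 126 FPKM. Loci without an Ensembl annotation had 151 of 286 tested members higher and 87 lower, with 123 of the 286 in the test through erastin libraries alone and 56 through DMSO libraries alone.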
